A study of Homo sapiens with 4 samples.

Results

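The ZNF genes outside chromosome 19 were examined in HaCAT cells after knockdown of ALKBH5. A gene belonged to this set when its listed symbol was ZNF followed by a digit, it was annotated as protein coding, it lay on a chromosome other than 19 and its mean raw count over the 4 libraries was at least 20, with ZNF750 left out. The rule gave 216 of the 58735 listed genes. Within this naming rule the genes were chosen by their mean raw count, and the rule itself used no difference between groups. The rule was, however, set with earlier results of these data known, so the set was not picked blind to the group difference. A further 48 ZNF genes outside chromosome 19 lay under the minimum, 24 of them with 0 counts in every library. The genes just inside the minimum were ZNF713 (mean count 20.5), ZNF879 (26.5) and ZNF275 (28.25), and those just outside it were ZNF485 (18.5), ZNF620 (14.0) and ZNF396 (11.25).

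HaCAT is an established line of human keratinocytes. The control group (siControl, n = 2 libraries) is labelled wild type and received a normal control siRNA, and the knockdown group (siALKBH5, n = 2 libraries) received siRNA against ALKBH5 in the same transfection reagent. Both groups were grown in the same medium with serum, and poly-A RNA was sequenced. The labels do not say whether the paired libraries of a group were separate cultures, so the p-values measure the spread between these libraries, which may be technical. The duration of knockdown is not given in the sample labels.

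Most ZNF proteins carry arrays of C2H2 zinc fingers, each a short loop in which paired cysteines and histidines hold a zinc ion, and the array reads DNA a few bases per finger. Many also carry a KRAB domain, which binds the scaffold TRIM28 (KAP1) and through it the histone methyltransferase SETDB1, heterochromatin proteins and deacetylases, and which is best known for silencing transposable elements. Other ZNF proteins have few fingers and work on RNA, on ribosomes or as parts of chromatin complexes. ALKBH5 removes the methyl group from N6-methyladenosine, a mark on messenger RNA that affects its processing, export and decay.

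The 4 libraries held between 16017502 and 18837807 counts on genes, and 15075 genes passed the expression filter of edgeR, all 216 ZNF genes outside chromosome 19 among them. Log2 fold changes are given with their SE. Levels are given as CPM, counts scaled to a common library size after TMM normalization, in replicate order within a group. Mitochondrial genes held 10.2% of the counts of each control library, against 9.63% and 9.64% after knockdown. The 10 keratinocyte markers examined were all detected, and their summed level was 18596 and 18177 CPM in siControl and 24045 and 24122 CPM in siALKBH5. Of these, 4 were higher after knockdown (KRT5, KRT6A, KRT14 and SFN, with log2 fold changes between 0.22 and 0.68), 4 were lower (KRT17, TP63, ITGA6 and ITGB4, between -0.09 and -0.06) and 2 did not pass the test. The 11 markers of other cell types summed to 41.3 and 43.3 CPM in siControl and 48.1 and 48.7 CPM in siALKBH5. COL1A2 and TYR had 0 counts, COL3A1, PTPRC, PECAM1 and CD3E had at most 4 counts and MLANA at most 13 in any library, whereas COL1A1 had 267 to 310 and PMEL 38 to 61, neither past the test. DCN was lower (52 and 71 counts in siControl against 24 and 29 in siALKBH5) and VWF was higher (293 and 348 against 501 and 437). The part of these marker changes in the results was not tested. ALKBH5 itself measured 93.7 and 87.5 CPM in siControl and 51.1 and 49.5 CPM in siALKBH5, 55.5% of the control mean (log2 fold change -0.85 ± 0.05, adjusted p = 6.38e-15, edgeR quasi-likelihood test).

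The ZNF genes outside chromosome 19 moved in both directions by small amounts, with more of them down than up. Of the 216 genes, 37 were lower in siALKBH5 at an adjusted p under 0.05, 14 were higher and 165 did not pass the test. The lower genes made up 17.1% of the set beside 17.3% of all genes tested, so their share was near that of all genes. The higher genes made up 6.48% of the set beside 19.3% of all genes tested. Of the 11780 protein-coding genes tested with a mean count of at least 20, 19.7% were lower and 23.1% higher. With DESeq2, 17 were lower and 7 higher, where 10.5% and 15.1% of all genes with an adjusted p were called by that tool. Their median log2 fold change was -0.07, against -0.01 over all genes tested, and 133 of the 216 (61.6%) had a negative value, against 51.2% of all genes. In bulk RNA, fewer cells of a type and less RNA per cell cannot be told apart. Past a log2 fold change of 1 in either direction there was 1 lower gene, ZNF10, and there were 0 higher genes (0 at an unadjusted p under 0.05 as well, and 0 with DESeq2), where 1.3% and 1.62% of all genes tested were lower and higher by that rule.

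Read library by library, more of these genes lay below the controls than above them. Both siALKBH5 libraries lay below both siControl libraries for 88 genes (40.7%, beside 33.5% of all genes tested) and above them for 33 genes (15.3%, beside 32.8%), and the groups overlapped for the other 95. All 51 called genes were among those with groups apart, as were nearly all called genes over the whole table. Groups apart thus lend a call no further support. Summed over the 216 genes, the level was 5045 and 5041 CPM in siControl and 4810 and 4778 CPM in siALKBH5, so both knockdown libraries lay below both controls. A large part of this fall came from the highly expressed ZNF704, described below. As a share of the raw counts, the set took 0.508% in each siControl library and 0.478% and 0.474% in the siALKBH5 libraries. The number of higher genes fell from 14 to 9 without siControl replicate 2, and the 1 lower gene past the larger fold became 0 without siControl replicate 2 or siALKBH5 replicate 1 and 2 without either of the other libraries. The added gene was ZNF572 without siControl replicate 1 and ZNF785 without siALKBH5 replicate 2, and without siControl replicate 2 the gene ZNF25 passed as higher. These were named after their values were seen.

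**Figure D1:**
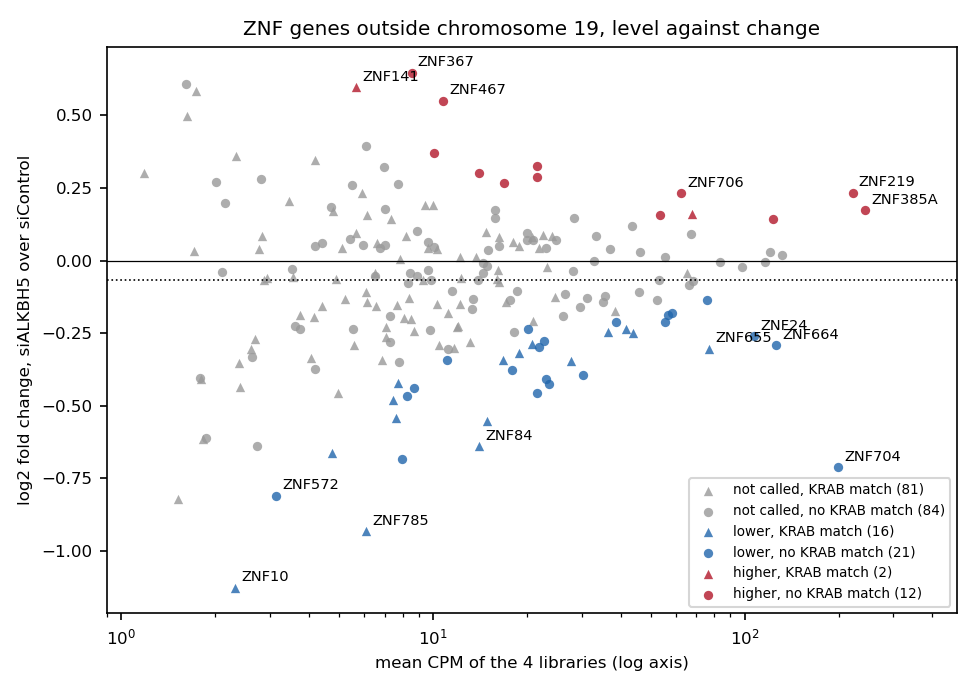
Each point is 1 of the 216 ZNF genes outside chromosome 19, with its mean CPM over the 4 libraries on a log axis and its log2 fold change (siALKBH5 over siControl); triangles have a KRAB match, colours give the call and the dotted line is the median of the set, -0.07. ZNF10 is the lowest point at -1.13 and ZNF367 the highest at 0.65, and the well counted genes lie closer to 0.

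The gene with the largest change was ZNF10 (KOX1), whose KRAB domain is the repressor widely fused to Cas9 for gene silencing. Its level was 2.60 and 3.72 CPM in siControl and 1.28 and 1.64 CPM in siALKBH5, from 42, 67, 24 and 27 counts. Both knockdown libraries lay below both controls, but the controls themselves differed by more than the knockdown libraries did (log2 fold change -1.13 ± 0.29, adjusted p = 0.00252, edgeR quasi-likelihood test). Without siControl replicate 2 the call was lost (log2 fold change -0.84, adjusted p = 0.0992). ZNF785, a KRAB gene on the short arm of chromosome 16 with 7 fingers, measured 7.75 and 8.21 CPM in siControl and 3.74 and 4.67 CPM in siALKBH5. Its groups lay well apart (log2 fold change -0.93 ± 0.17, adjusted p = 4.41e-05, edgeR quasi-likelihood test), and it was called in every fit. ZNF84, another KRAB protein, with 19 fingers, measured 16.9 and 17.3 CPM in siControl and 10.2 and 11.8 CPM in siALKBH5. It too was lower in both knockdown libraries (log2 fold change -0.64 ± 0.12, adjusted p = 4.21e-05, edgeR quasi-likelihood test) and called in every fit.

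The coding bases of the KRAB domain are shown for these genes, since the domain is what joins them to the TRIM28 machinery, followed by the first regular finger of ZNF10. Each stretch was read 5′ to 3′ on the coding strand from the GENCODE 29 transcripts (GRCh38) and lies within 1 coding exon. In the KRAB stretches the capitals mark the codons that matched the search pattern, and in the finger they mark the cysteine and histidine codons that hold zinc.
ZNF10 KRAB, chr12:133151034-133151123, plus strand: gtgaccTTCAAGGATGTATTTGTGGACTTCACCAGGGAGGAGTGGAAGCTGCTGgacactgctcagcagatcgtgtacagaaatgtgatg
ZNF785 KRAB, chr16:30585438-30585527, minus strand: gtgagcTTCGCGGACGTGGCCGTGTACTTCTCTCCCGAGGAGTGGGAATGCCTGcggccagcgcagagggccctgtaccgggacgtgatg
ZNF84 KRAB, chr12:133047970-133048050, plus strand: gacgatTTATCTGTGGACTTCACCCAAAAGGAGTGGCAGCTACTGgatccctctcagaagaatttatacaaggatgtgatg
ZNF10 finger, chr12:133156045-133156107, plus strand: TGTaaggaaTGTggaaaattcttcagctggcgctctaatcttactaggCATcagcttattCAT
The ZNF10 stretch covers codons 14 to 43 of a protein of 573 residues, that of ZNF785 codons 29 to 58 of 405, and that of ZNF84 codons 11 to 37 of 738. The finger covers codons 267 to 287 of ZNF10.

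Among the well expressed genes that were lower, ZNF704 had the smallest adjusted p of the set. It measured 247 and 248 CPM in siControl and 152 and 149 CPM in siALKBH5. The controls agreed within 1 CPM of each other, and the knockdown mean was 61.0% of the control mean (log2 fold change -0.71 ± 0.03, adjusted p = 1.74e-18, edgeR quasi-likelihood test). ZNF664, a short protein of 261 residues that is mostly fingers, measured 139.9 and 138 CPM in siControl and 112 and 115 CPM in siALKBH5 (log2 fold change -0.29 ± 0.04, adjusted p = 2.52e-07, same test). ZNF24, a SCAN domain protein known to repress VEGFA, measured 116 and 118 CPM in siControl and 98.95 and 96.1 CPM in siALKBH5 (log2 fold change -0.26 ± 0.04, adjusted p = 5.50e-06). ZNF655 (VIK1), which interacts with VAV1 and CDK4, measured 82.7 and 86.9 CPM in siControl and 68.3 and 69.3 CPM in siALKBH5 (log2 fold change -0.30 ± 0.05, adjusted p = 6.02e-06). In each of these the knockdown libraries lay below both controls with no overlap. ZNF131, a BTB domain transcription factor, measured 25.5 and 24.3 CPM in siControl and 17.7 and 18.6 CPM in siALKBH5 (log2 fold change -0.46 ± 0.09, adjusted p = 1.36e-04). ZNF512B measured 32.5 and 36.0 CPM in siControl and 25.9 and 26.3 CPM in siALKBH5 (log2 fold change -0.39 ± 0.08, adjusted p = 1.31e-04). The calls of ZNF704, ZNF664, ZNF24, ZNF655, ZNF131 and ZNF512B held in every fit. The spans of ZNF664, ZNF655, ZNF131 and ZNF512B overlap other expressed genes, and whether the counting used strand is not given in the sources used here, so reads of such partners may not be told apart.

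The higher genes were fewer and included the most highly expressed. ZNF219, a transcriptional regulator and partner of SOX9, measured 204 and 204 CPM in siControl and 242 and 238 CPM in siALKBH5. Both knockdown libraries were above both controls by far more than either group's spread (log2 fold change 0.23 ± 0.03, adjusted p = 2.25e-07, edgeR quasi-likelihood test); its span overlaps ARHGEF40. ZNF385A (HZF), a cofactor of p53 that also binds mRNA, measured 232 and 224 CPM in siControl and 268 and 247 CPM in siALKBH5 (log2 fold change 0.17 ± 0.03, adjusted p = 1.05e-04, same test). ZNF367, a transcription factor, had the largest rise of the set, with 5.95 and 7.33 CPM in siControl and 10.3 and 10.6 CPM in siALKBH5 (log2 fold change 0.65 ± 0.14, adjusted p = 5.80e-04). For both, each knockdown library was above each control. ZNF706, a protein of 76 residues with 1 finger, measured 56.1 and 58.5 CPM in siControl and 66.0 and 68.9 CPM in siALKBH5 (log2 fold change 0.23 ± 0.05, adjusted p = 8.72e-04). ZNF467 measured 8.49 and 9.05 CPM in siControl and 13.5 and 12.2 CPM in siALKBH5 (log2 fold change 0.55 ± 0.13, adjusted p = 9.07e-04). These 5 were called in every fit.

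Another 4 genes that the naming rule picked rose with less stable calls. ZNF462, a protein with 33 fingers that acts on chromatin, measured 19.6 and 18.6 CPM in siControl and 23.3 and 24.6 CPM in siALKBH5 (log2 fold change 0.33 ± 0.09, adjusted p = 0.00467, edgeR quasi-likelihood test), and its adjusted p was 0.0501 without siControl replicate 2. ZNF609, a partner of the cohesin loader that is also the source of a well known circular RNA, measured 115 and 119 CPM in siControl and 130.3 and 128 CPM in siALKBH5 (log2 fold change 0.14 ± 0.04, adjusted p = 0.00490), and its adjusted p was 0.0621 without siControl replicate 1. For both genes the groups did not overlap. ZNF141, a KRAB gene, measured 3.97 and 5.05 CPM in siControl and 7.59 and 6.07 CPM in siALKBH5 (log2 fold change 0.60 ± 0.18, adjusted p = 0.00845), with an adjusted p of 0.0941 without siControl replicate 1, 0.147 without siALKBH5 replicate 1 and 0.0733 with DESeq2. ZNF282 (HUB1), the other KRAB gene that was higher, measured 65.0 and 63.2 CPM in siControl and 70.7 and 72.3 CPM in siALKBH5 (log2 fold change 0.16 ± 0.05, adjusted p = 0.0142), with an adjusted p of 0.122 without siControl replicate 2, 0.0816 without siALKBH5 replicate 2 and 0.0848 with DESeq2. The remaining 5 higher genes, named after their values were seen, were ZNF341, a regulator of STAT3 transcription, ZNF319, ZNF142, ZNF76, a paralog of ZNF143, and ZNF185, an actin-associated LIM protein with no C2H2 finger. Their log2 fold changes lay between 0.16 and 0.37.

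**Figure D2:**
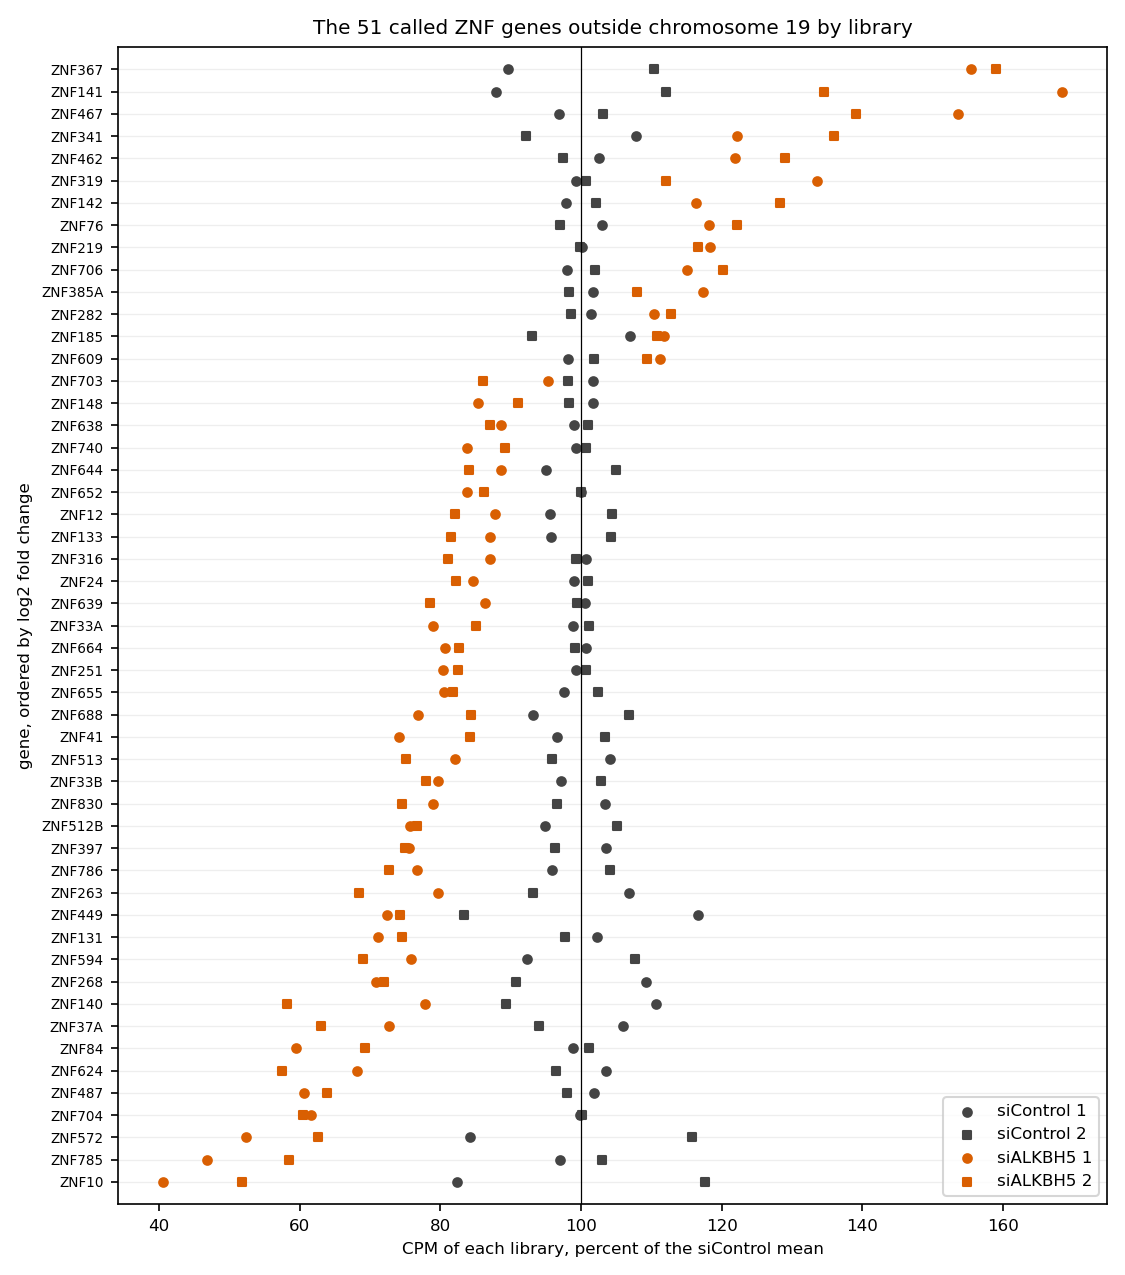
CPM of each library as a percent of the siControl mean for the 51 called genes, ordered by log2 fold change; grey marks are siControl, orange marks siALKBH5, circles replicate 1 and squares replicate 2. The siALKBH5 marks lie left of both siControl marks for the 37 lower genes and right of them for the 14 higher genes, and ZNF10, ZNF572 and ZNF449 show the widest spread between controls.

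By protein, 99 of the 216 genes had a KRAB match in a coding transcript (45.8%, against 74.9% of the 179 ZNF genes on chromosome 19 chosen with the same minimum). Of the 99, 16 were lower (16.2%, beside 17.3% of all genes tested) and 2 higher (2.02%, beside 19.3%), with a median log2 fold change of -0.13. Of the 117 without a match, 21 were lower (17.9%) and 12 higher (10.3%), with a median of -0.04. The lower share of both kinds was thus near that of all genes, and the difference between the kinds was not tested. The median mean count was 135.75 with the match and 275.25 without it, and fewer genes were called where counts were low. On chromosome 19 the medians stood in the reverse order. They were -0.19 for the 134 genes with the match (19.4% lower, 1.49% higher) and -0.27 for the 45 without it (22.2% lower, 0% higher). Both of the 2 higher genes there had the match. The summed level of the KRAB genes was 1262 and 1292 CPM in siControl and 1169 and 1174 CPM in siALKBH5, and that of the others was 3783 and 3749 CPM against 3641 and 3604 CPM. In both sums the knockdown libraries lay below the controls. A large part of the fall in the sum of the others came from the highly expressed ZNF704, which had no KRAB match. A SCAN domain, which joins ZNF proteins into dimers, matched in 14 genes. Of these, 4 were lower (28.6%, beside 17.3% of all genes tested), namely ZNF24, ZNF263, ZNF397 and ZNF449, the last 2 named after their values were seen. The higher ones numbered 0 (beside 19.3% of all genes tested), also at an unadjusted p under 0.05. Both knockdown libraries lay above both controls for 0 of them, beside 32.8% of all genes tested. These shares rest on only 14 genes and were not tested.

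Among the genes with regular fingers, the median log2 fold change fell as the number of fingers rose. The genes with 0 regular fingers did not follow this order, and it was not tested. The 9 genes with 0 regular fingers had a median log2 fold change of -0.14, the 26 with 1 to 3 fingers 0.01, the 66 with 4 to 8 fingers -0.05, the 66 with 9 to 12 fingers -0.07 and the 49 with 13 or more fingers -0.12. The 179 ZNF genes on chromosome 19 had 36 lower and 2 higher genes and a median of -0.21. The 34 ZFP, ZSCAN and ZKSCAN genes had 6 lower and 3 higher and a median of -0.14. The set outside chromosome 19 thus had the median nearest to 0 of these 3 groups, a difference that was not tested.

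**Figure D3:**
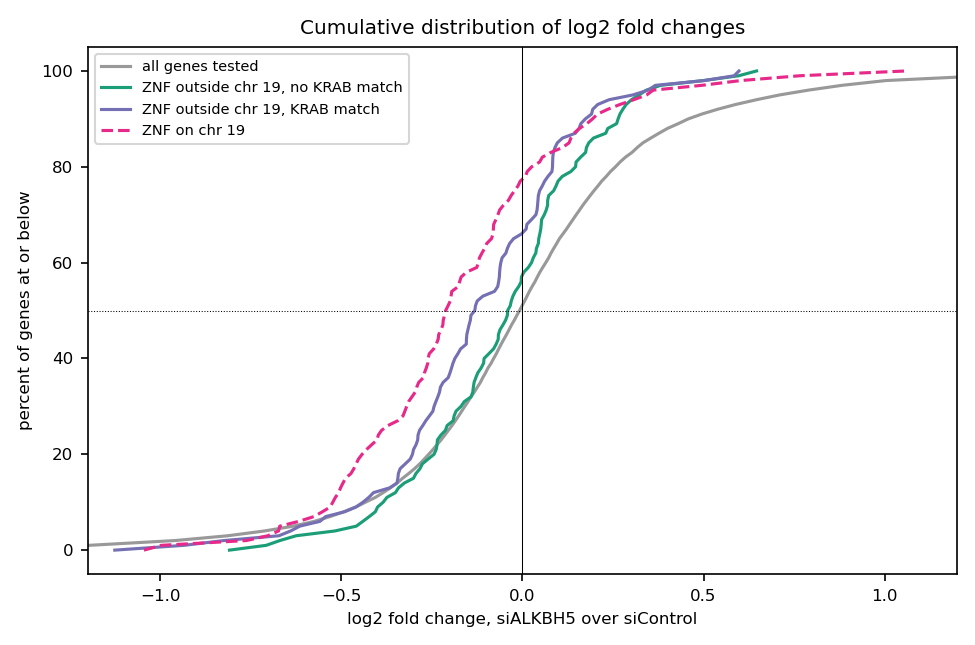
Percent of genes (vertical axis) at or below each log2 fold change (horizontal axis, siALKBH5 over siControl) for all genes tested, ZNF genes outside chromosome 19 with and without a KRAB match, and ZNF genes on chromosome 19. The curves cross the dotted 50% line at -0.01, -0.13, -0.04 and -0.21 in that order, so the 3 ZNF curves lie left of that of all genes at this height.

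More genes were called where counts were high, while the median change was alike. The set was divided into 4 equal groups by mean count. In the lowest (20.5 to 102.5) 3 of 54 genes were lower and 1 higher (5.56% and 1.85%). In the highest (398.5 to 4216) 16 of 54 were lower and 6 higher (29.6% and 11.1%). Of all genes tested, 17.3% were lower and 19.3% higher. The median log2 fold change was -0.06 in the lowest group and -0.08 in the highest. Per length, the highest levels were those of ZNF385A (76.4 CPM per kb), ZNF488 (33.3), ZNF219 (33.2), ZNF768 (28.5) and ZNF703 (22.6), and the median of the set was 2.16 CPM per kb. ZNF488, a repressor that works with OLIG proteins in glial cells, differed by less than its error, at 116 and 117 CPM in siControl and 116 and 116 CPM in siALKBH5 (log2 fold change -0.00 ± 0.04, adjusted p = 0.959, edgeR quasi-likelihood test). ZNF768 measured 70.5 and 69.3 CPM in siControl and 67.5 and 65.5 CPM in siALKBH5 (log2 fold change -0.07 ± 0.05, adjusted p = 0.291), below both controls but not past the test.

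By composition, the longest coding transcripts of the 216 genes had a median GC content of 45.9%, against 49.7% for all 12474 coding genes tested that had a sequence. The lower genes had a median of 42.3%, the higher genes 58.3% and those not called 46.7%. Among the 108 genes at or below the median of the set, 25 were lower and 3 higher, and among the 108 above it 12 were lower and 11 higher. The other coding genes followed a like order, with 28.0% lower and 14.6% higher at or below that GC content and 13.4% lower and 27.2% higher above it. The split by GC was made after the calls had been seen, and its part in the calls was not tested.

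The genes that lie close together were examined as runs, with neighbours at most 1 Mb apart and at least 4 genes per run. There were 14 such runs with 87 genes, 16 of them called, where 51 of all 216 genes of the set were called. Of all genes tested, 17.3% were lower and 19.3% higher. In the run near the end of the long arm of chromosome 12 (chr12:132918308-133214831, in the coordinates of the deposited tables, hg38), all 7 genes had a negative log2 fold change, 4 were lower and the median was -0.48 (of all genes tested, 51.2% were negative and 17.3% lower). These 4 were ZNF84, ZNF140, ZNF10 and ZNF268, each a KRAB gene. ZNF140 measured 10.0 and 8.10 CPM in siControl and 7.06 and 5.28 CPM in siALKBH5 (log2 fold change -0.54 ± 0.16, adjusted p = 0.00781, edgeR quasi-likelihood test), and its call was lost without siControl replicate 1 (adjusted p = 0.117), without siALKBH5 replicate 2 (adjusted p = 0.126) and with DESeq2 (adjusted p = 0.0644). ZNF268 measured 9.48 and 7.88 CPM in siControl and 6.15 and 6.25 CPM in siALKBH5 (log2 fold change -0.48 ± 0.15, adjusted p = 0.0132), and its call was lost without siControl replicate 1 (adjusted p = 0.173) and with DESeq2 (adjusted p = 0.0981). The knockdown libraries lay below both controls for these 4 genes and for ZNF605 and ZNF26, whereas ZNF891, at 5.70 and 6.94 CPM in siControl and 5.99 and 5.76 CPM in siALKBH5, overlapped. ZNF891 and ZNF140 share part of their span on opposite strands.

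In 2 other runs, each of 4 genes, every log2 fold change was also negative, with a median of -0.20 on chromosome 1 and -0.21 on chromosome 5, and 0 genes were called in them (0 and 2 lower at an unadjusted p under 0.05, edgeR quasi-likelihood test, and 0 with DESeq2). The remaining 11 runs held values on both sides of 0. The run of 13 genes on the short arm of chromosome 16 that holds ZNF785 had a median of 0.08, with ZNF785 and ZNF688 lower and 8 genes at a positive value. ZNF688, which lies next to ZNF785, measured 19.5 and 22.4 CPM in siControl and 16.1 and 17.7 CPM in siALKBH5 (log2 fold change -0.32 ± 0.10, adjusted p = 0.0127, edgeR quasi-likelihood test), and its adjusted p was 0.228 without siControl replicate 2, 0.112 without siALKBH5 replicate 1 and 0.0910 with DESeq2. In the run on chromosome 10, ZNF37A measured 18.8 and 16.6 CPM in siControl and 12.9 and 11.2 CPM in siALKBH5 (log2 fold change -0.55 ± 0.12, adjusted p = 2.53e-04) and was called in every fit. ZNF33A, in the same run, measured 22.6 and 23.1 CPM in siControl and 18.1 and 19.5 CPM in siALKBH5 (log2 fold change -0.29 ± 0.09, adjusted p = 0.0138), with an adjusted p of 0.0811 without siControl replicate 2 and 0.0973 with DESeq2. Its call was also lost without siALKBH5 replicate 1, at a log2 fold change of -0.23. It has a near copy, ZNF33B (log2 fold change -0.34 ± 0.08, adjusted p = 7.84e-04), and reads of the pair may have been shared. ZNF263 on chromosome 16, a SCAN gene, was lower in every fit (log2 fold change -0.43 ± 0.09, adjusted p = 4.38e-04). In a run of 11 genes on chromosome 7, ZNF786 was lower (log2 fold change -0.42 ± 0.15, adjusted p = 0.0238) while ZNF282 and ZNF467 were higher, and without siControl replicate 2 or siALKBH5 replicate 2 the adjusted p of ZNF786 was 0.145 or 0.0984, and with DESeq2 it was 0.144.

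**Figure D4:**
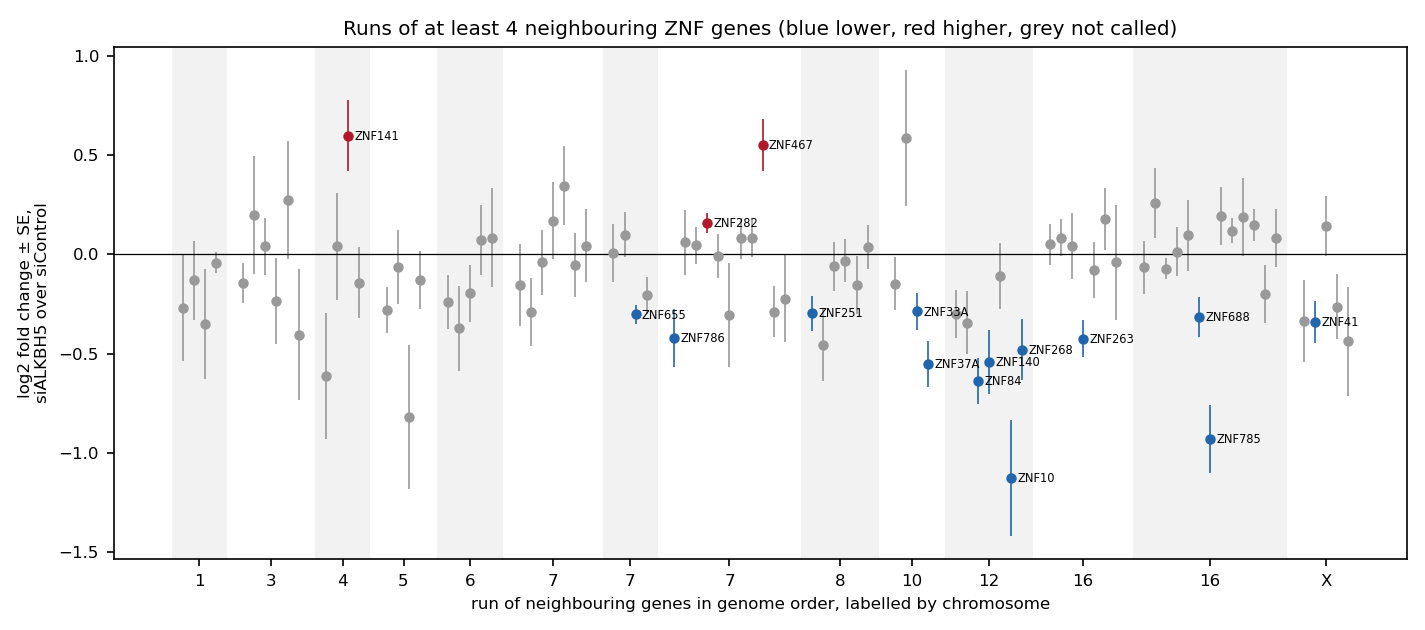
Log2 fold change (siALKBH5 over siControl) with its SE for the 87 genes of the 14 runs, in genome order and labelled by chromosome; blue is lower, red higher and grey not called. The 7 genes of the chromosome 12 run all lie below 0, whereas the runs on chromosomes 7 and 16 lie on both sides.

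Promoter sequences were looked up in RefSeq (GRCh38.p14, 250 bases before to 50 after each start), where 180 of the 216 genes matched by symbol. The ETS word CCGGAAGT was found on either strand in 26 of the 180 (14.4%, against 4.44% of all 27305 promoters). The 27305 were not limited to coding or expressed genes, as the 180 were, so these shares compare unlike groups. CCAATC, 1 form of the CCAAT box, was found in 40 (22.2% against 15.7%) and TATAAA, the TATA box, in 7 (3.89% against 11.95%). The E2F words TTTCCCGC or TTTGGCGC were found in 7 (3.89% against 2.31%), and ACTACAATT, part of the site of ZNF143, in 4 (2.22% against 0.37%). None of these words contains another. The ETS word was in 6 of the 31 lower genes with a promoter and in 0 of the 10 higher ones. For CCAATC these counts were 8 and 1, for the E2F words 2 and 1, for the ZNF143 word 1 and 0 and for TATAAA 0 and 0. With 10 higher genes such counts are small, and they were not tested. A match is only a run of letters in this window.

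The promoters of ZNF140 and ZNF10 are shown for the chromosome 12 run, that of ZNF785 as a lower KRAB gene called in every fit and that of ZNF367 for the largest rise. Capitals mark matches to the words above, 5′ to 3′ on the strand of the gene.
ZNF140 promoter, chr12:133080673-133080972, plus strand: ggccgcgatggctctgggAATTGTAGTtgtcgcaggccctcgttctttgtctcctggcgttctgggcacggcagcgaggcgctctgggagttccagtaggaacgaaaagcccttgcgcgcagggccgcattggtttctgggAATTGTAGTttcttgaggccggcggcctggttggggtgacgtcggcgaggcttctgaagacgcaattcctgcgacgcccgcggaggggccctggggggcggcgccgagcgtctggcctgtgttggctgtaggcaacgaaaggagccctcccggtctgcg
ZNF10 promoter, chr12:133130377-133130676, plus strand: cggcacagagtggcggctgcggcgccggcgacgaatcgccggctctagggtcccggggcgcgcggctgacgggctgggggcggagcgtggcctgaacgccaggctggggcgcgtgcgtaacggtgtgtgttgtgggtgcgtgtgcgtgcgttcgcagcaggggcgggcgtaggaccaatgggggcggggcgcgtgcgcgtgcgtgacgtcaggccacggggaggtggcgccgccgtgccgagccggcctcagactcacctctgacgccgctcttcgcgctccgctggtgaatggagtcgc
ZNF785 promoter, chr16:30585648-30585947, minus strand: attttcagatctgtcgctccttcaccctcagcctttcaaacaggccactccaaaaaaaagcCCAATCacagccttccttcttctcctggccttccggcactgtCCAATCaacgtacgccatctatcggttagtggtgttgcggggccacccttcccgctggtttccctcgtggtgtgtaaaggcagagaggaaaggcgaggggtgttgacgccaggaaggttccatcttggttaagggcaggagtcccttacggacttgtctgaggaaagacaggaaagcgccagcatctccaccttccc
ZNF367 promoter, chr9:96418321-96418620, minus strand: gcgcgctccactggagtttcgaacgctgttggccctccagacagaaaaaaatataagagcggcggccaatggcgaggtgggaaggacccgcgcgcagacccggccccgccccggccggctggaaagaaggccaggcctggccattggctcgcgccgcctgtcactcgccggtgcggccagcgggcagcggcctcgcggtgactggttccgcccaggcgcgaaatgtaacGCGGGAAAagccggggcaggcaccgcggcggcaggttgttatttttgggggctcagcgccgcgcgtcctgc
The ZNF140 promoter holds the ZNF143 word on the reverse strand at 2 places, that of ZNF785 holds CCAATC at 2 places, and that of ZNF367 holds 1 E2F word on the reverse strand. That of ZNF10 holds none of the words and has a GC content of 74.3%. Those of ZNF84 and ZNF268, the other called genes of the chromosome 12 run, also hold none of the words and are not shown. The promoters of ZNF140, ZNF10 and ZNF367 hold CCAAT followed by G on either strand, a form that the word CCAATC misses.

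By role, the genes with known parts in RNA or ribosome biology (13 in the set) had 2 lower and 2 higher (15.4% each, beside 17.3% and 19.3% of all genes tested). ZNF638 (NP220), which binds RNA and helps silence retroviral DNA, measured 59.7 and 60.8 CPM in siControl and 53.4 and 52.5 CPM in siALKBH5 (log2 fold change -0.19 ± 0.06, adjusted p = 0.00862, edgeR quasi-likelihood test). Its adjusted p was 0.0694 without siControl replicate 2, 0.0549 without siALKBH5 replicate 2 and 0.0749 with DESeq2. ZNF830, a spliceosome-associated protein that also takes part in genome stability, measured 21.0 and 19.6 CPM in siControl and 16.0 and 15.2 CPM in siALKBH5 (log2 fold change -0.38 ± 0.10, adjusted p = 0.00305) and was called in every fit, and its span overlaps CCT6B. ZNF706 and ZNF385A, described above, were the higher ones. The other 9, among them the ribosome quality control ligase ZNF598 and the spindle and splicing factor ZNF207, had log2 fold changes between -0.19 and 0.15. The median of the 13 was 0.00. The 6 genes with parts in the cell cycle or genome stability had ZNF830 lower, ZNF367 higher and the other 4 between -0.25 and 0.19.

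The genes for chromatin and transcription cofactors (22 in the set) had 5 lower and 2 higher (22.7% and 9.09%, beside 17.3% and 19.3% of all genes tested), with a median of -0.04. Beside ZNF24, the lower ones had small changes. ZNF644, a partner of the G9a and GLP methyltransferases, measured 39.3 and 43.4 CPM in siControl and 36.6 and 34.8 CPM in siALKBH5 (log2 fold change -0.21 ± 0.07, adjusted p = 0.0172, edgeR quasi-likelihood test). ZNF148 (ZBP-89) measured 63.3 and 61.2 CPM in siControl and 53.1 and 56.7 CPM in siALKBH5 (log2 fold change -0.18 ± 0.06, adjusted p = 0.0109). ZNF652, a partner of the corepressor CBFA2T3, measured 21.8 and 21.8 CPM in siControl and 18.3 and 18.8 CPM in siALKBH5 (log2 fold change -0.23 ± 0.09, adjusted p = 0.0463). For these 3 the groups did not overlap, and the knockdown means were 86.3%, 88.2% and 85.0% of the control means. ZNF703, a corepressor amplified in breast cancer, measured 80.7 and 77.9 CPM in siControl and 75.6 and 68.3 CPM in siALKBH5 (log2 fold change -0.14 ± 0.05, adjusted p = 0.0360). These 4 calls depended on single libraries. The adjusted p of ZNF644 was 0.272 without siControl replicate 2 and 0.117 without siALKBH5 replicate 2, that of ZNF148 was 0.0901 without siControl replicate 1 and 0.162 without siALKBH5 replicate 1, that of ZNF703 was 0.193 without siControl replicate 1 and 0.467 without siALKBH5 replicate 2, and that of ZNF652 lay between 0.0818 and 0.176 whichever library was left out. None of these 4 passed with DESeq2, with adjusted p between 0.0864 and 0.202. The higher ones were ZNF219 and ZNF462. The 15 that did not pass the test, among them ZNF143, ZNF217 and ZNF281, had log2 fold changes between -0.30 and 0.10.

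The partners through which KRAB proteins silence DNA are not ZNF genes but were examined beside them. Of 21 such genes, 6 were lower and 7 higher (28.6% and 33.3%, beside 17.3% and 19.3% of all genes tested), with a median of 0.04. Of the protein-coding genes tested with a mean count of at least 20, 19.7% were lower and 23.1% higher. The scaffold TRIM28 measured 276 and 265 CPM in siControl and 309.7 and 303 CPM in siALKBH5 (log2 fold change 0.18 ± 0.03, adjusted p = 6.99e-06, edgeR quasi-likelihood test), so it was higher in both knockdown libraries, and the methyltransferase SETDB1 measured 40.2 and 44.5 CPM in siControl and 42.8 and 44.2 CPM in siALKBH5 (log2 fold change 0.04 ± 0.07, adjusted p = 0.722) with overlapping groups. UHRF1 and DNMT1, which keep DNA methylation through replication, rose most, by 0.84 ± 0.13 (adjusted p = 5.01e-06) and 0.79 ± 0.05 (adjusted p = 8.72e-14) on the log2 scale. CBX5, the heterochromatin protein HP1 alpha, and ATF7IP, the partner of SETDB1, rose by 0.39 ± 0.04 (adjusted p = 7.19e-10) and 0.31 ± 0.05 (adjusted p = 1.00e-06). SMARCAD1, a remodeller that binds TRIM28, was lower at -0.48 ± 0.10 (adjusted p = 2.01e-04), as was the NuRD helicase CHD3 at -0.31 ± 0.03 (adjusted p = 2.24e-11). MPHOSPH8 and FAM208A (TASOR), subunits of the HUSH silencing complex, were also lower, at -0.24 ± 0.06 (adjusted p = 0.00264) and -0.14 ± 0.06 (adjusted p = 0.0433). The rest of the called partners were HDAC1 and MTA2, which were higher, and HDAC2 and CBX3, which were lower, by at most 0.17 in size.

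**Figure D5:**
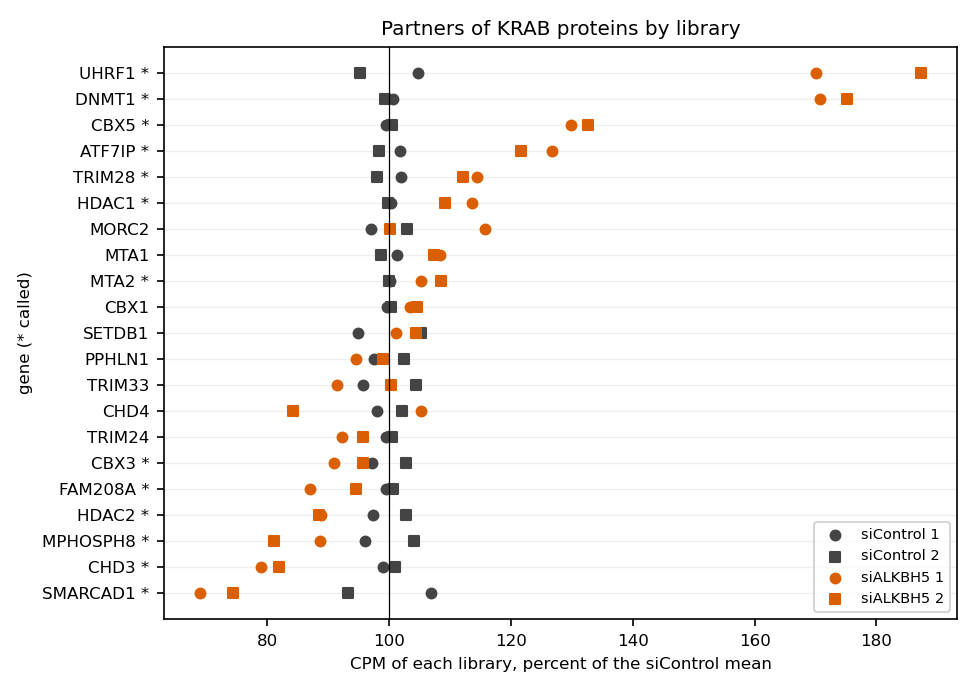
CPM of each library as a percent of its siControl mean for 21 partners of KRAB proteins, ordered by log2 fold change, with asterisks for called genes; grey marks are siControl, orange marks siALKBH5, circles replicate 1 and squares replicate 2. UHRF1 and DNMT1 lie far to the right at 179% and 173% of control on average, and SMARCAD1 lies farthest to the left at 71.6%.

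The 13 lower genes that the naming rule did not pick had log2 fold changes between -0.81 and -0.21, all with groups apart, and ZNF251 on chromosome 8 and ZNF41 on the X chromosome, both in runs, were lower by 0.30 and 0.34 on the log2 scale. The adjusted p of ZNF251 (0.00833, edgeR quasi-likelihood test) was 0.0510 without siControl replicate 2 and 0.0514 without siALKBH5 replicate 1, and that of ZNF41 (0.0107) was 0.0983 and 0.137; with DESeq2 they were 0.0716 and 0.0791. Of the 165 genes not called, 70 had groups apart (42.4%, beside 47.0% of all genes not called), and their log2 fold changes lay between -0.82 and 0.61, with the extremes at ZNF879 and ZNF275, both just inside the minimum count.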

How the data were processed

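Poly-A RNA of HaCAT cells was sequenced in 2 siControl and 2 siALKBH5 libraries. The authors deposited raw counts per gene without normalization, and the submitters' processing notes name HISAT2 2.0.5, featureCounts 1.5.0-p3, DESeq2 1.20.0 and hg38. The deposited tables also hold FPKM and columns that compare 1 library with 1 (fold changes and p-values), none of which were used, and gene length, which was used for CPM per kb. Strand use in counting is not given in the sources used here.

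In R 4.3.3, edgeR 4.0.16 was run on the counts of the whole table (filterByExpr, TMM and its quasi-likelihood functions glmQLFit and glmQLFTest), comparing siALKBH5 with siControl without covariates, with Benjamini-Hochberg adjustment over the 15075 genes tested and a call at an adjusted p under 0.05. CPM use the TMM library sizes. Totals ran from 16017502 to 18837807 counts, and a count of 0 allows up to 3 counts, which covers counting error only. With 2 libraries per group no permutation of labels can pass 0.05. Alternatives were DESeq2 1.42.0, its size factors, library size only, other filters, other minimum counts, the replicate number as a block, overlapping genes or those with a letter suffix left out, and each library left out in turn. The steps were tested on simulated data.

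The members, the role lists and the tests were chosen with earlier results of these data known. Genes named are those past both thresholds, the 8 smallest adjusted p per direction with a mean CPM of at least 5, the role lists, the 5 highest per length, ZNF785, the 3 on each side of the minimum and the called genes of the runs. Proteins were translated from GENCODE 29, in which all 216 genes had a coding transcript. Fingers were matched in the longest one with a spacer of 12 residues, and KRAB and SCAN by short patterns (2 for KRAB, in any transcript), which can miss diverged domains. The KRAB patterns, the 1 Mb gap and the minimum of 4 for runs, the promoter words and the GC split were set after the files had been seen.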

Additional observations from a re-analysis of the deposited data

How the results depend on the processing

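The counts of lower and higher genes at an adjusted p under 0.05 stayed within 1.5 times of 37 and 14 under the other size factors, library size only (45 and 11), the filters, the replicate block (44 and 15) and the other choices of members. With DESeq2 they were 17 and 7, all 24 of them among the edgeR calls. Without 1 library, the lower genes numbered 27 to 34 and the higher genes 9 to 12, and 15 lower and 5 higher genes were called in every fit. The lower genes past a log2 fold change of -1 numbered 0 to 2 and the higher ones past 1 numbered 0 to 1 without 1 library, and 0 lower ones passed with a minimum mean of 50 counts, which leaves ZNF10 out. The median log2 fold change of -0.066 was -0.062 with DESeq2, -0.064 with its size factors, -0.088 with library size only, -0.060 with no filter, -0.068 with the replicate block, -0.057 without genes with a letter suffix and between -0.088 and -0.065 without 1 library; it was negative throughout. ALKBH5 lay between -0.90 and -0.79 without 1 library. Replicate numbers were shared between groups, but the deviations of same-numbered libraries correlated at 0.0337, so the numbers were not taken to pair the libraries and the replicate block is an alternative only. Of 640 alternative values of the 64 genes named by the rule, 556 kept direction and side of the threshold, 48 lost the call, 8 gained it and 28 moved, and 0 called genes changed sign. With 2 libraries per group, a change in a gene with few counts was not detectable unless large.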
